A study of Mus musculus with 4 samples.

Results

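Myosins are motors that use ATP to pull on actin filaments, and calponins are actin-binding proteins that sit along the same filaments. In T cells these proteins shape the actin cortex under the plasma membrane, and they serve migration, contact with antigen-presenting cells and the transport of vesicles. The set described here holds 9 genes of the 27179 in the deposited count table, namely the myosin heavy chain genes Myo6, Myo1c, Myo1e, Myo1f, Myo1g, Myo9b and Myh9 and the calponin genes Cnn2 and Cnn3. They were picked by symbol as members of these families, and Myo6 and Cnn3 were picked because their counts were higher in P65KO libraries, so the values of that pair are a description and carry no test. All 9 passed the filter on low counts that left 11172 genes for testing.

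The 4 RNA sequencing libraries were made from Treg cells (CD4+Foxp3+), which restrain immune responses, of C57BL/6 mice at steady state, with spleen and peripheral lymph nodes as the source. Of these, 2 are labelled WT and 2 are labelled P65KO, for a deficiency of RelA (p65), which is part of NF-kB and binds DNA. The labels name no Cre driver, deleted exon, age or number of animals. They do not say whether replicates are different mice, and the p-values therefore reflect spread among libraries that may be technical. The comparison asks how expression in Treg cells differs with the P65KO label.

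Library totals ran from 4513863 to 4624230 counts, and a floor of 3 counts corresponds to 0.649 to 0.665 CPM by the plain library total, for counting error only. All other CPM values are counts scaled by the library total with its TMM factor. Cd3e had 3275 to 4216 counts, Cd4 4371 to 5313 and Foxp3 1724 to 2385 in each library. Cd3e, Cd4 and Foxp3 did not pass, while of the 9 T cell and Treg identity markers 4 fell and 1 rose (edgeR). Of 8 B cell markers, Ighm had 2167 to 4907 counts in a library, Cd79b 46 to 182 and Cd22 13 to 62, these 3 fell (edgeR), and Pax5 had 0 counts in all 4. Rela had WT counts of 875 and 806 and P65KO counts of 820 and 909, which does not check the label because whole-gene counts include exons outside a deleted part. The groups also differed in Xist (494 and 608 counts in WT, 0 and 2 in P65KO) and in Ddx3y (0 and 0 against 302 and 404), so genotype label and sex-linked signal cannot be told apart in these libraries. The summed level of 16 myeloid and dendritic markers was 165 and 233 CPM in WT and 1148 and 420 CPM in P65KO. Lyz2 alone had 90.9 and 141 CPM in WT and 635 and 193 CPM in P65KO. Of the 11 markers tested 10 were higher (edgeR), where 9% of all tested genes were higher and 11.7% lower. The 5 not tested had few counts. C1qb had 2 and 3 in WT against 10 and 9 in P65KO, and Cd14 had 4 and 2 against 3 and 0. Among dendritic markers, Clec9a had 1 and 3 against 6 and 0, Xcr1 5 and 10 against 5 and 2, and Siglech 0 and 1 against 0 and 0.

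Myo6 and Cnn3 had the highest P65KO to WT ratios of the 9 genes. Myo1e fell 2.69-fold and Myo1f 2.85-fold, and for Myh9, Myo1g and Myo9b the libraries of the groups overlapped. Of the 7 members that were not chosen for their change, 2 fell, 0 rose and 5 did not pass, where 20.7% of all 11172 tested genes passed in either direction and 11.7% passed as lower (edgeR quasi-likelihood test with p adjusted by Benjamini-Hochberg, threshold 0.05, as throughout). At an unadjusted p under 0.05, edgeR gave 0 of the 7 higher and 3 lower, DESeq2 1 higher and 2 lower, and limma-voom 0 higher and 3 lower. Over all tested genes the shares past that unadjusted threshold were 15.1% higher and 17.5% lower with edgeR, 9.5% and 10.8% with DESeq2, and 15% and 17.4% with limma-voom. The median log2 difference of the 7 was -0.02, beside 0.0025 over all genes tested. The plot of CPM by library shows all 9 genes. In bulk samples fewer cells that express a gene and less RNA of it per cell cannot be told apart.

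**Figure D1:**
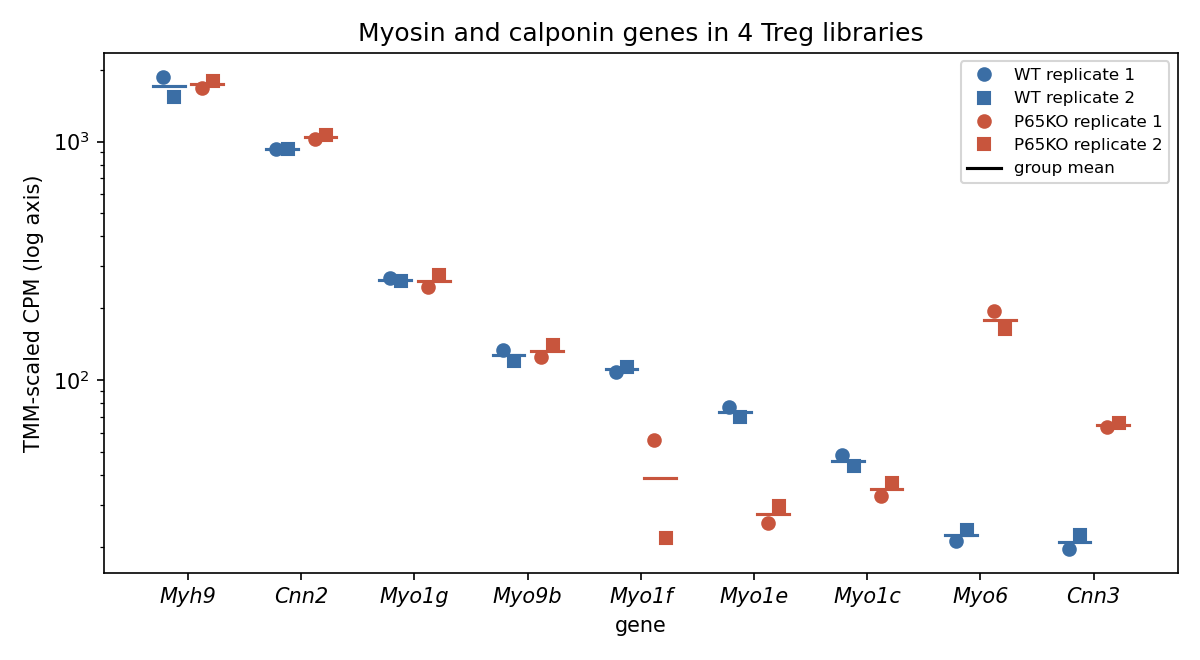
TMM-scaled CPM (log axis) of the 9 genes in each library, with WT in blue and P65KO in red, circles for replicate 1, squares for replicate 2 and a line at each group mean. Myo6 and Cnn3 stood higher in both P65KO libraries, Myo1e and Myo1f stood lower, and the pair of P65KO values of Myo1f (56.0 and 21.7 CPM) lay far apart.

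Myo6 encodes myosin VI, the myosin known for moving toward the minus end of actin filaments, where it carries endocytic vesicles and links autophagy receptors to actin. The gene (Entrez 17920; GRCm38 chromosome 9, 80164976 to 80311729) had WT counts of 97 and 109 and P65KO counts of 878 and 738. On the CPM scale these were 21.1 and 23.5 in WT and 194 and 163 in P65KO, with no overlap between the groups. Over all tested genes, 24.5% had groups that did not overlap in their share of counts with P65KO higher. The group means were 22.3 ± 1.70 and 179 ± 21.4 CPM (SD, n = 2 each), an 8.02-fold higher level with a log2 difference of 3.0 (SE 0.13). With any single library left out the log2 difference was 2.87 to 3.12. This describes the values by which Myo6 was chosen and is no support for its rise. Of the 11172 tested genes, 77 (0.689%) had a log2 difference at least this large, Myo6 included.

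Cnn3 encodes calponin 3, also called acidic calponin, which binds actin filaments outside smooth muscle. The gene (Entrez 71994; chromosome 3, 121426541 to 121458205) had WT counts of 90 and 104 and P65KO counts of 288 and 299. Its mean level was 21.0 ± 2.01 CPM for WT and 64.9 ± 1.91 CPM for P65KO (SD, n = 2 each), a 3.10-fold higher level with a log2 difference of 1.63 (SE 0.13). Both P65KO libraries stood above both WT libraries, as for 24.5% of all tested genes, and the 2 libraries of each group lay close together. The log2 difference was 1.54 to 1.73 with any single library left out, and 252 of the tested genes (2.26%) had one at least as large. Cnn3 too was chosen for its rise, so these values describe it and do not test it. An unclassified transcript on the opposite strand, Gm42928, shares 538 exon bases with Cnn3 in the GENCODE annotation, and since the strand setting of the counting is not given in the sources used here, reads from the pair cannot be told apart.

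The upstream sequences of this pair are shown because these genes were higher together, and those of Myo1e and Cnn2 because their windows hold a CArG box, the binding motif of serum response factor (SRF), a regulator of actin and myosin genes. RefSeq promoter windows of GRCm38.p6, 300 bases each, were matched for all 9 genes by gene symbol. Each sequence is printed 5′ to 3′ on the gene's strand and stops before the first annotated start of the gene, with capitals marking GC boxes (GGGCGG on either strand) and CArG boxes.
Myo6, chr9:80164784-80164975, plus strand: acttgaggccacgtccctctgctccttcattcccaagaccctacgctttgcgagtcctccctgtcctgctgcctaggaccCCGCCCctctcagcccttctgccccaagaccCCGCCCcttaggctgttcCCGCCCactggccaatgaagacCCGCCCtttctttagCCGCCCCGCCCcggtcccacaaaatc
Cnn3, chr3:121426291-121426496, plus strand: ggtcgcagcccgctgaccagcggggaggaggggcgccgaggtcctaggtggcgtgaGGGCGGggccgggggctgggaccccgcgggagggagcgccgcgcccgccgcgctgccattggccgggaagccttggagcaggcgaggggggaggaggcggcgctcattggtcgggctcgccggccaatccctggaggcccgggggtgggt
Myo1e, chr9:70207100-70207349, plus strand: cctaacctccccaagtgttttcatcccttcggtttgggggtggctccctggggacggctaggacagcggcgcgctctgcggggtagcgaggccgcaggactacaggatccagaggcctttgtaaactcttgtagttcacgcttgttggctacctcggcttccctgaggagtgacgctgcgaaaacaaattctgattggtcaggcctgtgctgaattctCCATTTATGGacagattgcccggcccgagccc
Cnn2, chr10:79988350-79988583, plus strand: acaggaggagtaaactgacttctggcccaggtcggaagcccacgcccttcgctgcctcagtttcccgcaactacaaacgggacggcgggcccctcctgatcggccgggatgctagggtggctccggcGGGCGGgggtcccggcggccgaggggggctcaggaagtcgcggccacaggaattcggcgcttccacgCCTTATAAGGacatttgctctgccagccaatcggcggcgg

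The Myo6 window held 7 GC boxes, 2 of them overlapping, and the Cnn3 window 1. The last Myo6 box, at 80164995 to 80165000, lies after the first annotated start of the gene and so is not in the printed sequence. At least 1 GC box was found in a window of 7 of the 9 genes, all but Myo1e and Myo1g, and in 35.7% of the 32851 windows of the whole table. The CArG box of Myo1e, CCATTTATGG, lay 32 to 23 bases before the start site, and that of Cnn2, CCTTATAAGG, 56 to 47 bases before it, while 1.63% of all windows held such a box. The NF-kB consensus known as the kappaB site, searched on both strands, was in none of the 11 windows of these 9 genes and in 8.46% of all windows. The motifs TATAAA and TGACGTCA, also searched on both strands, were found in the window of Myh9 alone and in none of the members' windows, beside 13.6% and 1.79% of all windows. These are matches of letters in short windows, and binding was not measured.

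**Figure D2:**
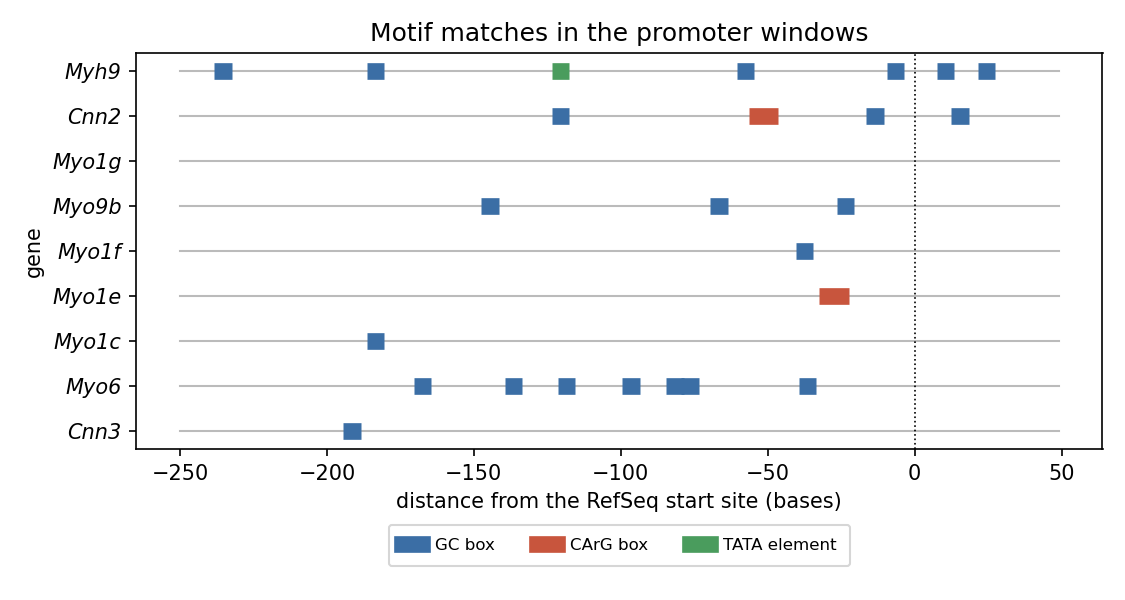
Motif matches along the RefSeq promoter window of each gene (first window for Myo1c), with distance from the start site in bases on the horizontal axis and GC boxes in blue, CArG boxes in red and the TATA element in green. Myo6 carried a run of 7 GC boxes, and CArG boxes stood only in the windows of Myo1e and Cnn2.

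Class I myosins tether membrane to cortical actin, and 4 of them are members. Myo1e, which works in endocytosis and at the cell edge, fell. The gene (Entrez 71602, chromosome 9, 70207350 to 70400067) had WT counts of 355 and 326 and P65KO counts of 114 and 134. The groups did not overlap, as for 60.5% of all tested genes in either direction. Its mean level was 73.6 ± 4.88 CPM for WT and 27.4 ± 3.20 CPM for P65KO (SD, n = 2 each), a 2.69-fold decrease (log2 difference -1.42 with SE 0.13, and edgeR adjusted p = 7.63e-06). The call held under all 10 alternative settings, with adjusted p of at most 0.0136.

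Myo1f, a class I myosin found mainly in blood cells and best known from neutrophils and macrophages, also fell, but unevenly. The gene (Entrez 17916; chromosome 17, 33555707 to 33607764) had WT counts of 499 and 526 and P65KO counts of 254 and 98. The groups did not overlap, as for 60.5% of all tested genes in either direction. The P65KO libraries differed from each other 2.58-fold in CPM, against 1.05-fold for the WT libraries. The mean level was 111 ± 3.46 CPM for WT and 38.9 ± 24.3 CPM for P65KO (SD, n = 2 each), 2.85-fold lower (log2 difference -1.51 with SE 0.26, and edgeR adjusted p = 0.00134). The log2 difference was -2.35 without P65KO replicate 1 and -0.98 without P65KO replicate 2, and the call was lost without WT replicate 1, without WT replicate 2, with no filter and with DESeq2 (adjusted p of 0.0851, 0.0899, 0.118 and 0.112). P65KO replicate 1, the library with more Myo1f, also held more of the myeloid markers, at 1148 CPM against 420 CPM, and their part in the level of Myo1f was not tested.

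Myo1c, a widely expressed class I myosin that moves vesicles to the plasma membrane, did not pass. The gene (Entrez 17913; chromosome 11, 75650519 to 75674643) had WT counts of 222 and 202 and P65KO counts of 148 and 167. Both P65KO libraries stood below both WT libraries, at 34.8 ± 3.07 against 45.8 ± 3.33 CPM (SD, n = 2 each). Groups that did not overlap, in either direction, were found for 60.5% of all tested genes. The log2 difference was -0.40 with SE 0.13 (edgeR adjusted p = 0.0517, and 0.0320 to 0.351 over the alternatives). With library totals and no scaling it passed, at an adjusted p of 0.0320 by the same edgeR test.

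Myo1g, the class I myosin largely restricted to haematopoietic cells and abundant at the lymphocyte membrane, did not pass. The gene (Entrez 246177; chromosome 11, 6506548 to 6520960) had WT counts of 1237 and 1203 and P65KO counts of 1113 and 1241, and the groups overlapped. Its log2 difference of -0.02 had a 95% interval of -0.22 to 0.18, which corresponds to 0.857-fold to 1.14-fold (edgeR adjusted p = 0.913).

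Myo9b carries a domain that switches off the GTPase RhoA, so it is a motor and a signalling protein in one. The gene (Entrez 17925; chromosome 8, 71272576 to 71360713) had WT counts of 614 and 560 and P65KO counts of 568 and 633, again overlapping. Its log2 difference was 0.06, with a 95% interval of -0.15 to 0.28 (edgeR adjusted p = 0.711). Haus8, on the opposite strand, shares 116 exon bases with Myo9b and had 98 to 161 counts in each library, so a small part of either gene's reads may be shared.

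Myh9 encodes the heavy chain of nonmuscle myosin IIA, the motor that contracts the actin cortex of lymphocytes. The gene (Entrez 17886; chromosome 15, 77760585 to 77842175) had WT counts of 8625 and 7160 and P65KO counts of 7638 and 8074. The P65KO values lay between the WT values, and the log2 difference of 0.03 had a 95% interval of -0.20 to 0.25, or 0.869-fold to 1.19-fold (edgeR adjusted p = 0.898). Its sign turned without WT replicate 2, where the log2 difference was -0.10, and without WT replicate 1 it was 0.17.

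Cnn2, calponin 2, is the calponin of blood cells and fibroblasts. The gene (Entrez 12798; chromosome 10, 79988600 to 79995400) had WT counts of 4268 and 4308 and P65KO counts of 4635 and 4794. Both P65KO libraries were above both WT libraries by a small margin, at 1042 ± 27.9 against 927 ± 0.502 CPM (SD, n = 2 each), 1.12-fold. The log2 difference of 0.17 did not pass, with a 95% interval of -0.02 to 0.36 (edgeR adjusted p = 0.203). Over the 7 unchosen genes the groups did not overlap for 4, namely Cnn2, Myo1c, Myo1e and Myo1f, while 60.5% of all tested genes had groups that did not overlap in their share of the counts.

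Levels can be compared between genes only per length, and for this the deposited RPKM values (reads scaled by gene length and library total) were used. In WT the order was Cnn2 (527 RPKM), Myh9 (235), Myo1g (80.9), Myo1f (29.3), Myo9b (17.7), Myo1e (15.1), Cnn3 (10.7), Myo1c (8.23) and Myo6 (2.88), and no neighbours in this order overlapped in their 2 libraries. In P65KO the first 3 places were the same, followed by Cnn3 (31.8 RPKM), Myo6 (22.3), Myo9b (17.9), Myo1f (10.0), Myo1c (6.05) and Myo1e (5.46). There Myo1f overlapped with Myo1c and Myo1c with Myo1e, so the last 3 places are not ordered beyond the spread between libraries.

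Myo6 had 2.75 and 3.02 RPKM in WT and 24.3 and 20.3 RPKM in P65KO. Among 38 myosin heavy chain genes it ranked 8 in both WT libraries and 3 in both P65KO libraries, behind Myh9 and Myo1g. Its share of the summed RPKM of 24 unconventional myosin genes (all those named Myo) was 1.49% and 1.73% in WT and 15.0% and 12.5% in P65KO, while that of Myo1g was 45.1% and 45.4% in WT and 45.4% and 50.1% in P65KO. The summed RPKM of the unconventional genes was 184 and 174 in WT and 161 and 162 in P65KO. For the calponins, Cnn2 exceeded Cnn3 by 53.0 and 46.3 times in WT and by 18.1 and 18.0 times in P65KO on the RPKM scale, and Cnn1, the smooth muscle calponin, had 0 counts in all 4 libraries.

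**Figure D3:**
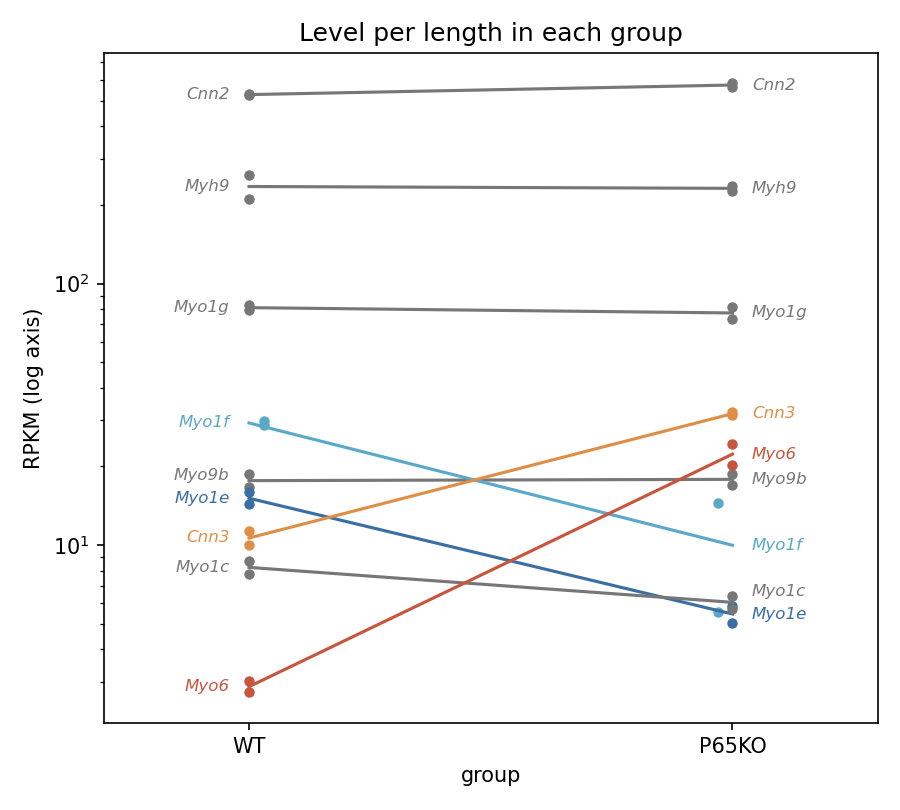
RPKM (log axis) of the 9 genes in WT and P65KO, with points for the 2 libraries of each group and lines joining the group means; the points of Myo1f are set slightly inward so that they can be seen. Cnn2, Myh9 and Myo1g kept the first 3 places, Myo6 moved from 2.88 to 22.3 RPKM and Myo1e from 15.1 to 5.46 RPKM.

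Most other genes of these families had few or no reads. Of 32 other myosin heavy chain and calponin genes, 12 had 0 counts in every library, 11 had counts too few to test and 9 were tested. Of those 9, 0 rose, 2 fell and 7 did not pass, with a median log2 difference of -0.16 (edgeR). Over all tested genes 9% rose and 11.7% fell. At an unadjusted p under 0.05, edgeR gave 1 of the 9 higher and 3 lower, DESeq2 0 and 1, and limma-voom 1 and 4. The shares of all tested genes past that threshold were 15.1% higher and 17.5% lower with edgeR. They were 9.5% and 10.8% with DESeq2, and 15% and 17.4% with limma-voom. Without P65KO replicate 1 the number passing was 5, and with either WT replicate or P65KO replicate 2 dropped it was 1.

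Myo3b, a class III myosin with a kinase domain that is best known from sensory cells, had WT counts of 58 and 66 and P65KO counts of 7 and 10. It fell 7.13-fold (log2 difference -2.82 with SE 0.34, and edgeR adjusted p = 7.97e-05). Myo5a, a motor that carries vesicles toward the plus end of actin filaments, had WT counts of 82 and 90 and P65KO counts of 59 and 48 and fell 1.57-fold (edgeR adjusted p = 0.0386). Myo5a no longer passed in edgeR when WT replicate 1, WT replicate 2 or P65KO replicate 2 was dropped or with no filter, nor with DESeq2 (adjusted p of 0.163, 0.238, 0.185, 0.112 and 0.307). Myo18a, which stands beside Myo9b in level at 14.7 to 18.1 RPKM in the 4 libraries, did not pass (edgeR adjusted p = 0.487).

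**Figure D4:**
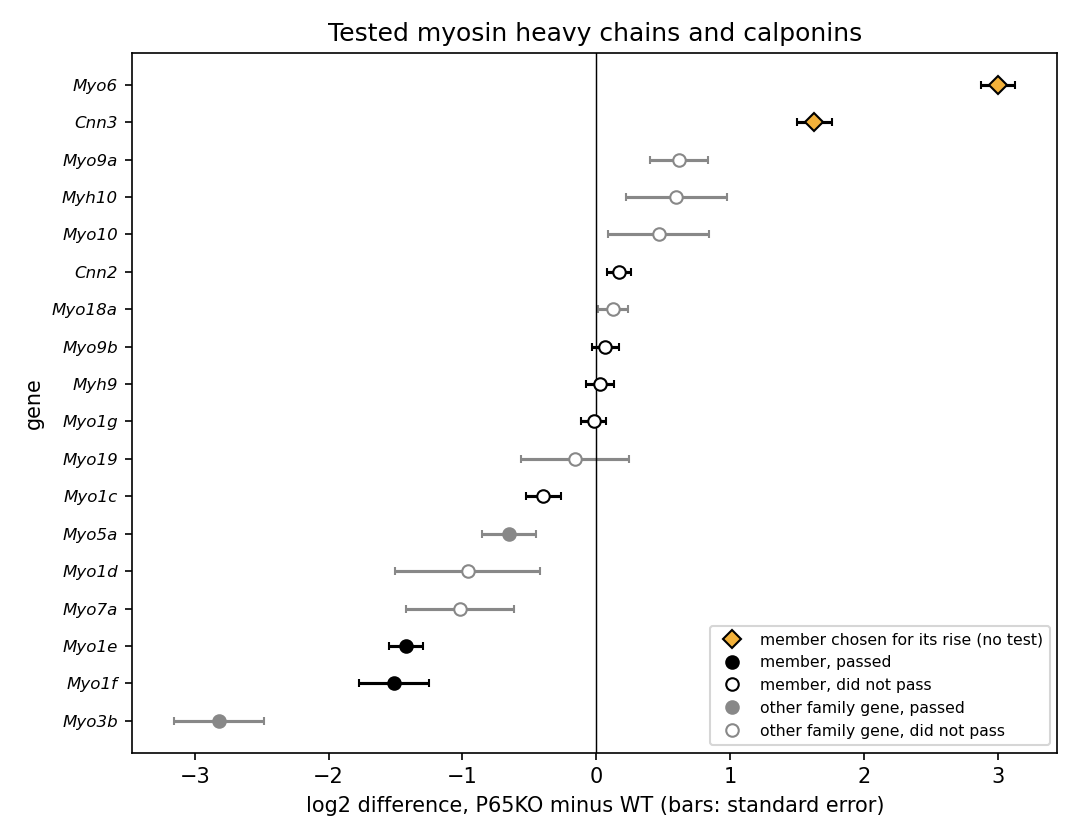
Log2 difference (P65KO minus WT) with its standard error for the 18 tested myosin heavy chain and calponin genes, with the 9 described genes in black and the other 9 in grey, filled where the gene passed and yellow diamonds for the pair chosen for its higher level. Myo1e, Myo1f, Myo3b and Myo5a passed as lower, and Myh9, Myo1g, Myo9b and Myo18a lay near 0.

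Myosin light chains bind the neck of the heavy chains, and phosphorylation of the regulatory light chain switches on Myh9. None of the 5 tested light chain genes passed with edgeR, DESeq2 or limma-voom, and 0 of them had an unadjusted p under 0.05 with any of the 3 tools. Of all 11172 tested genes 2310 (20.7%) passed with edgeR, 1318 with DESeq2 and 2245 with limma-voom. The shares at an unadjusted p under 0.05 were 15.1% higher and 17.5% lower with edgeR. They were 9.5% and 10.8% with DESeq2, and 15% and 17.4% with limma-voom. Myl12b, a regulatory light chain, had WT counts of 2103 and 2146 and P65KO counts of 2055 and 1867. Myl6, an essential light chain, had WT counts of 491 and 612 and P65KO counts of 562 and 520, and its groups overlapped. Myl12a and Myl12b are near copies, so reads may be split between them with uncertainty.

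Dapk1, a kinase that can phosphorylate the regulatory light chain, had WT counts of 22 and 32 and P65KO counts of 88 and 110 and rose 3.75-fold (edgeR). S100a4, a calcium-binding protein that binds the tail of the Myh9 protein, had WT counts of 680 and 1131 and P65KO counts of 425 and 210 and fell 2.79-fold (edgeR). The log2 difference of S100a4, -1.48, was -2.07 without P65KO replicate 1 and -1.06 without P65KO replicate 2. It was -1.79 without WT replicate 1 and -1.07 without WT replicate 2. S100a4 did not pass without WT replicate 2, with no filter or with DESeq2. The 4 dedicated light chain kinase genes (Mylk, Mylk2, Mylk3 and Mylk4) had 0 counts in every library.

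The cargo adaptors of myosin VI connect the motor to its vesicles. Of 7 tested adaptor genes 1 rose, 1 fell and 5 did not pass (edgeR). The median log2 difference was -0.02, and among all tested genes 9% rose and 11.7% fell. Tax1bp1, an autophagy receptor that binds myosin VI and also restrains NF-kB signalling, had WT counts of 868 and 851 and P65KO counts of 857 and 798. Gipc1, an endosomal adaptor, had WT counts of 223 and 235 and P65KO counts of 229 and 216, a log2 difference with a 95% interval of -0.26 to 0.24. Optn, another autophagy receptor, had at most 6 counts in a library, and Dab2, the clathrin adaptor of epithelial cells and macrophages, had 0 in all 4. Tom1l2, an endosomal adaptor, rose 1.44-fold and Ppfibp1, a liprin, fell 2.28-fold. Neither passed when either WT replicate was dropped or with no filter, and Tom1l2 also not without either P65KO replicate, with library totals alone or with DESeq2, so that 0 or 1 of the 7 passed with a single library left out.

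On the actin side, 1 of 8 tested actin, tropomyosin and transgelin genes rose, 1 fell and 6 did not pass (edgeR). The median log2 difference was 0.18, beside shares of 9% higher and 11.7% lower over all tested genes. Actg2, an actin otherwise typical of smooth muscle, had WT counts of 140 and 151 and P65KO counts of 11 and 13 and fell 11.9-fold (log2 difference -3.55 with SE 0.23, and edgeR adjusted p = 5.78e-07). The smooth muscle genes Myh11, Acta2 and Cnn1 had at most 1, 5 and 0 counts in a library. Tpm3, a tropomyosin, which lies in the groove of the actin filament, rose 1.28-fold, and it no longer passed when either WT replicate or P65KO replicate 2 was dropped, or with no filter. Actb and Actg1, the cytoplasmic actins, did not pass (edgeR adjusted p of 0.218 and 0.202).

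Among 15 tested crosslinkers and cortical linkers, 4 rose, 1 fell and 10 did not pass, with a median log2 difference of 0.08 (edgeR). The shares over all tested genes were 9% higher and 11.7% lower. Actn1, alpha-actinin 1, which crosslinks actin filaments, had WT counts of 1215 and 1178 and P65KO counts of 2168 and 2439 and rose 1.97-fold. Ezr (ezrin), which ties membrane proteins to actin, rose 1.44-fold. Fscn1 (fascin), an actin bundler typical of mature dendritic cells, had WT counts of 10 and 6 and P65KO counts of 71 and 35 and rose 6.76-fold, and like the myeloid markers it was higher in P65KO replicate 1. Its log2 difference of 2.74 was 2.15 without that library. Pls3, a plastin, fell 4.20-fold from low counts, a log2 difference of -2.04 that was -2.76 without P65KO replicate 1 and -1.57 without P65KO replicate 2. It no longer passed when either WT replicate or P65KO replicate 2 was dropped, nor with DESeq2, and Fscn1 and Ezr did not pass without WT replicate 2. With no filter Fscn1, Ezr and Pls3 did not pass. The number passing was 1 to 4 with a single library left out. Of 6 tested genes of SRF and its cofactors, 0 passed with edgeR, DESeq2 or limma-voom, where 2310, 1318 and 2245 of all 11172 tested genes passed. At an unadjusted p under 0.05 edgeR gave 0 of the 6 higher and 1 lower, DESeq2 0 and limma-voom 0 and 1. The shares of all tested genes past that threshold were 15.1% higher and 17.5% lower with edgeR. They were 9.5% and 10.8% with DESeq2, and 15% and 17.4% with limma-voom.

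The genes of most like pattern were named by the smallest root mean square difference from Myo6 or Cnn3 in centred log2 CPM over the 4 libraries, a measure that follows the same contrast by which the pair was chosen and has no test. For Myo6 the nearest was Ffar2, a receptor for short-chain fatty acids, with WT counts of 11 and 11 and P65KO counts of 110 and 86 (difference 0.068 in log2 units). Cdk14, I830077J02Rik, Bcl11a and Pdlim4 followed, all with at most 3 counts in a WT library. Their fitted log2 differences were 4.23, 3.90, 4.26 and 3.40, against 3.0 for Myo6. At such counts the prior count of 2 shrinks the differences, so their likeness to Myo6 depends on it. For Cnn3 the nearest was Ly6c1, a surface antigen of the Ly6 family, with WT counts of 245 and 267 and P65KO counts of 761 and 739 (difference 0.048 in log2 units). Gm15708, Vipr1, Igfbp4 and Scn2b followed, among which Igfbp4 had WT counts of 814 and 834 and P65KO counts of 2695 and 2840. Scn2b had WT counts of 2 and 2 and a fitted log2 difference of 2.42, against 1.63 for Cnn3.

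In P65KO replicates 1 and 2 the myeloid markers summed to 1148 and 420 CPM, where Myo6 stood at 194 and 163 CPM and Cnn3 at 63.5 and 66.2 CPM. Of 9 T cell and Treg identity markers 1 rose and 4 fell (edgeR), and they summed to 5882 and 5927 CPM in WT and 4968 and 5346 CPM in P65KO. The summed level of 8 B cell markers, mostly Ighm, was 1115 and 1097 CPM in WT and 784 and 495 CPM in P65KO. The 8 erythroid and platelet markers summed to 16.1 and 21.9 CPM in WT and 78.1 and 136 CPM in P65KO. This sum was mostly the haemoglobin genes Hba-a1 (37.0 and 59.6 CPM in P65KO) and Hbb-bs (26.5 and 67.3 CPM). The platelet genes Pf4 and Gp9 had 0 counts in all 4 libraries, and Itga2b had 1 and 2 in WT against 32 and 4 in P65KO. The part of these transcripts in the levels of the 9 genes was not tested.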

How the data were processed

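The 4 libraries (2 WT, 2 P65KO, grouped and numbered by their titles) were made with an RNeasy Plus Mini kit and a TruSeq RNA kit, per the labels' protocols. Raw counts by Entrez identifier were deposited for the series, and log2 RPKM values per gene were deposited for each library. Subread, featureCounts and limma and the build GRCm38 (mm10) are named in the submitters' processing notes, with versions, annotation and strand setting not given in the sources used here. Adding 0.5 to each count and dividing by gene length and library total gave back the deposited log2 RPKM, with a length whole within 0.01 bases for 27178 of 27179 genes. They were used only for levels per length.

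Counts were filtered with filterByExpr, scaled by TMM and tested by edgeR 4.0.16 (R 4.3.3) with its quasi-likelihood test (Benjamini-Hochberg adjustment over all 11172 tested genes, threshold 0.05). The standard error is the log2 difference divided by the square root of F. The fit was tested on simulated counts. Alternatives were RLE factors, library totals, no filter, DESeq2 1.42.0, limma-voom (limma 3.58.1), the replicate number as a block and leaving out each library. Log2 CPM for the like patterns used a prior count of 2. The 571 genes without a symbol were kept.

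Members and lists were chosen with earlier results of these data known. Named genes were the 9 members, the called genes with the 3 largest differences per direction in each list (1 list and 1 marker gene are not reported here), and the 5 of most like pattern to Myo6 and to Cnn3. Myo18a, Myh11, Cnn1, Myl6, Myl12a, Myl12b, the Mylk genes, Tax1bp1, Gipc1, Optn, Dab2, Acta2, Actb and Actg1 are named for their role and were added after their values were seen. Coordinates and promoter windows are RefSeq (GRCm38.p6); overlaps are from GENCODE vM21 (GRCm38).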

Additional observations from a re-analysis of the deposited data

How the results depend on the processing

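The log2 differences of Myo1c, Myo1e, Myo1f and Cnn2 kept their sign under all 10 planned settings. Those of Myo6 and Cnn3 did too, but the pair was chosen for its rise in these libraries, so this is no support. Without 1 library the other library of that group was assumed to vary like the other group. Signs near 0 turned for Myo1g (0.0081 without WT replicate 1, 0.060 without P65KO replicate 1, and -0.10 to 0.060 over single libraries left out), Myo9b (-0.0016 without WT replicate 2, -0.018 without P65KO replicate 2, and up to 0.14) and Myh9 (-0.023 with library totals, -0.10 without WT replicate 2, -0.019 without P65KO replicate 2, and up to 0.17); the cause was not tested. Genes passing numbered 2310, against 771 of 16183 tested with no filter, 1318 with DESeq2, and 916 to 1676 with a library left out, and the cause of these drops was not tested. Of the 7 unchosen members 2 passed, against 1 with no filter, 1 with DESeq2 and 1 to 2 with a library left out. With no filter, 1 other heavy chain, 0 myosin VI adaptors, 1 actin or tropomyosin gene and 1 crosslinker passed. With DESeq2, 1 other heavy chain and 1 adaptor passed, and with library totals 1 adaptor and 1 gene of the SRF list. With a library left out the counts were 1 to 5 for other heavy chains, 0 to 1 for adaptors, 1 to 2 for actins and tropomyosins and 1 to 4 for crosslinkers. The replicate numbers are not said to pair the libraries. With the replicate block 2319 genes and 2 of the 7 members passed. Same-numbered deviations correlated at -0.14 over genes, and a crossed pairing, added after seeing the data, gave 2973 genes and 3 of the 7 members.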
